A study of Mus musculus with 8 samples.

Results

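The genes described here are the ligands and receptors of the tumour necrosis factor (TNF) superfamily and the TNF receptor-associated factors (TRAFs), as measured by RNA-seq in cells sorted as eosinophils from the bone marrow and the small intestine of mice. Members were chosen by symbol: every row named Tnfsf or Tnfrsf, the adaptors Traf1 to Traf7, and Tnf, Lta, Ltb, Ltbr, Fas and Fasl. This gave 46 genes of 38392 in the table, made up of 15 ligands, 22 receptors, 7 TRAFs and 2 further transcripts of the Tnfsf13 locus. Each tissue was represented by 4 libraries from wildtype female mice of the C57/BL6 strain, and neither tissue was treated. The cells from bone marrow were gated as CD11b+, Ly6G-, Ly6C-, SiglecF+ and high in side scatter, and those from intestine as CD11b+, MHC-II-, SiglecF+ and high in side scatter. Intestinal cells were released by stripping the epithelium and digesting the tissue with warm enzymes, and were enriched on CD11b beads, whereas bone marrow was flushed and sorted directly, so tissue and handling cannot be told apart. By the methods of the study the libraries of a tissue are biological replicates from separate mice, and the labels do not give the age of each animal. The table names the libraries by column, and values below follow the order BM_1, BM_3, BM_4, BM_5 in bone marrow and SI_6, SI_7, SI_10, SI_11 in small intestine.

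TNF superfamily ligands are trimeric, mostly membrane-bound proteins that are made largely by immune cells and bind receptors with cysteine-rich domains. Some receptors carry a death domain and can start apoptosis, others lack it and recruit TRAF adaptors directly, and decoy receptors bind a ligand without signalling. TRAFs connect the receptors to the IκB kinases and to MAP kinases, through which the NF-κB transcription factors are activated by a canonical route and, where the kinase NIK is released from degradation, by a non-canonical route. In eosinophils this family is known for survival and activation signals, and secretion of the plasma cell survival factor APRIL has been reported. The study states that early reports of plasma cell maintenance by eosinophils were later refuted and put down to mice from different vendors.

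The libraries held between 11508002 and 21289164 reads assigned to genes. Genes with a read numbered 20274, 24592, 19713 and 30886 in the bone marrow libraries and 29133, 28994, 33346 and 26624 in the small intestine libraries. These numbers did not follow depth, and their part in the values of genes with few reads was not tested. A normalised count is the number of reads, recovered from the deposited value, after division by the library's size factor. A difference is the small intestine mean minus the bone marrow mean of the deposited log2 values, with the standard error (SE) of limma. The bone marrow libraries went against their label in part. A neutrophil precursor list (10 genes, among them Mpo, Elane, S100a8 and S100a9) summed to between 490242 and 633192 normalised counts there and to between 742 and 1025 in small intestine. All 10 of its genes were lower in small intestine. The eosinophil list of 10 genes summed to between 4495 and 6087 in bone marrow and to between 33925 and 46778 in small intestine, where 4 of its genes were higher (Siglecf, Ccr3, Il5ra and Alox15) and 6, the granule protein genes and Cebpe, were lower. In the small intestine libraries, epithelial transcripts summed to between 2682 and 17943 normalised counts against 168 to 186 in bone marrow, and those of macrophages and dendritic cells to between 2981 and 11872 against 575 to 720, in both cases highest in SI_6. All 7 epithelial genes and 7 of 8 of the macrophage and dendritic cell genes were higher in small intestine. Erythroid transcripts (6 genes, all lower) summed to between 820 and 1042 in bone marrow and to between 43.9 and 89.5 in small intestine. Mast cell transcripts (6 genes, mostly Kit, with Cpa3 and Kit lower) summed to between 2532 and 3531 and between 551 and 1852. Kit alone averaged 3031 normalised counts for bone marrow and 1189 for small intestine, and Mcpt4, Tpsb2, Fcer1a and Cma1 at most 2.88 in either. Fibroblast transcripts (6 genes, 5 higher) summed to between 5.74 and 61.4 and between 154 and 724, and endothelial transcripts (5 genes, 4 higher, mostly Pecam1) to between 429.8 and 556 and between 7382 and 9779.8. Of the genes of all lists, Mcpt4 of mast cells alone was at 0 in every library of a tissue, bone marrow. The groups are called by their tissue below, and the part of these other transcripts in the results was not tested.

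In the whole table, 22.0% of genes were called higher and 12.9% lower in small intestine (limma, adjusted p under 0.05). Among the 45 protein-coding members 16 were higher (35.6%) and 10 lower (22.2%), where 28.4% of all protein-coding genes were higher and 20.1% lower. Of all protein-coding genes, 6281 of 20623 stayed under 10 normalised counts in both tissues, against 11 of the members. When genes of low count were left out, 15 of 34 members were higher and 11 lower, against 6436 and 5405 of 16139 genes. There both shares were near the background. Over all 46 members, 16 were higher (34.8%), 11 were lower (23.9%) and 19 did not pass the test. The median difference was 0.80 for members against 0.37 for all genes, and 0.87 against 0.44 when both were limited to protein-coding genes. With genes of low count left out, the medians were close, at 0.16 for members and 0.14 for all genes. Every small intestine library lay above every bone marrow library for 15 of the 46 members and below for 10, compared with 20.3% and 13.9% of all genes. Of the 45 protein-coding members 15 lay above and 9 below, compared with 27.3% and 22.2% of all protein-coding genes. In all, 35 members reached a mean of 10 normalised counts in a tissue, and 11 stayed under it in both. The direction of calls over the whole table depended on the scaling: quantile normalisation gave 5954 higher and 7032 lower genes in place of 8465 and 4937, and moved the median difference of all genes to -0.03. For the members the same scaling gave 13 higher and 11 lower, and no called member changed sign under it.

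The kinds of member differed in their counts of calls and in their levels. Of the 15 ligands 1 was higher, 2 were lower and 12 did not pass the test. Of the 22 receptors 11 were higher, 7 were lower and 4 did not pass, and of the 7 TRAFs 4 were higher and 3 did not pass. Of all protein-coding genes 28.4% were higher and 20.1% lower. In both tissues 8 of the ligands, 3 of the receptors and 0 of the TRAFs stayed under a mean of 10 normalised counts. At that level 2135 of 20451 genes of the whole table were called, so the counts of the kinds are not matched for level. The difference between these kinds was not tested. In bulk RNA a change in the share of a cell type and a change in RNA per cell cannot be told apart, which applies to every value below.

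**Figure D1:**
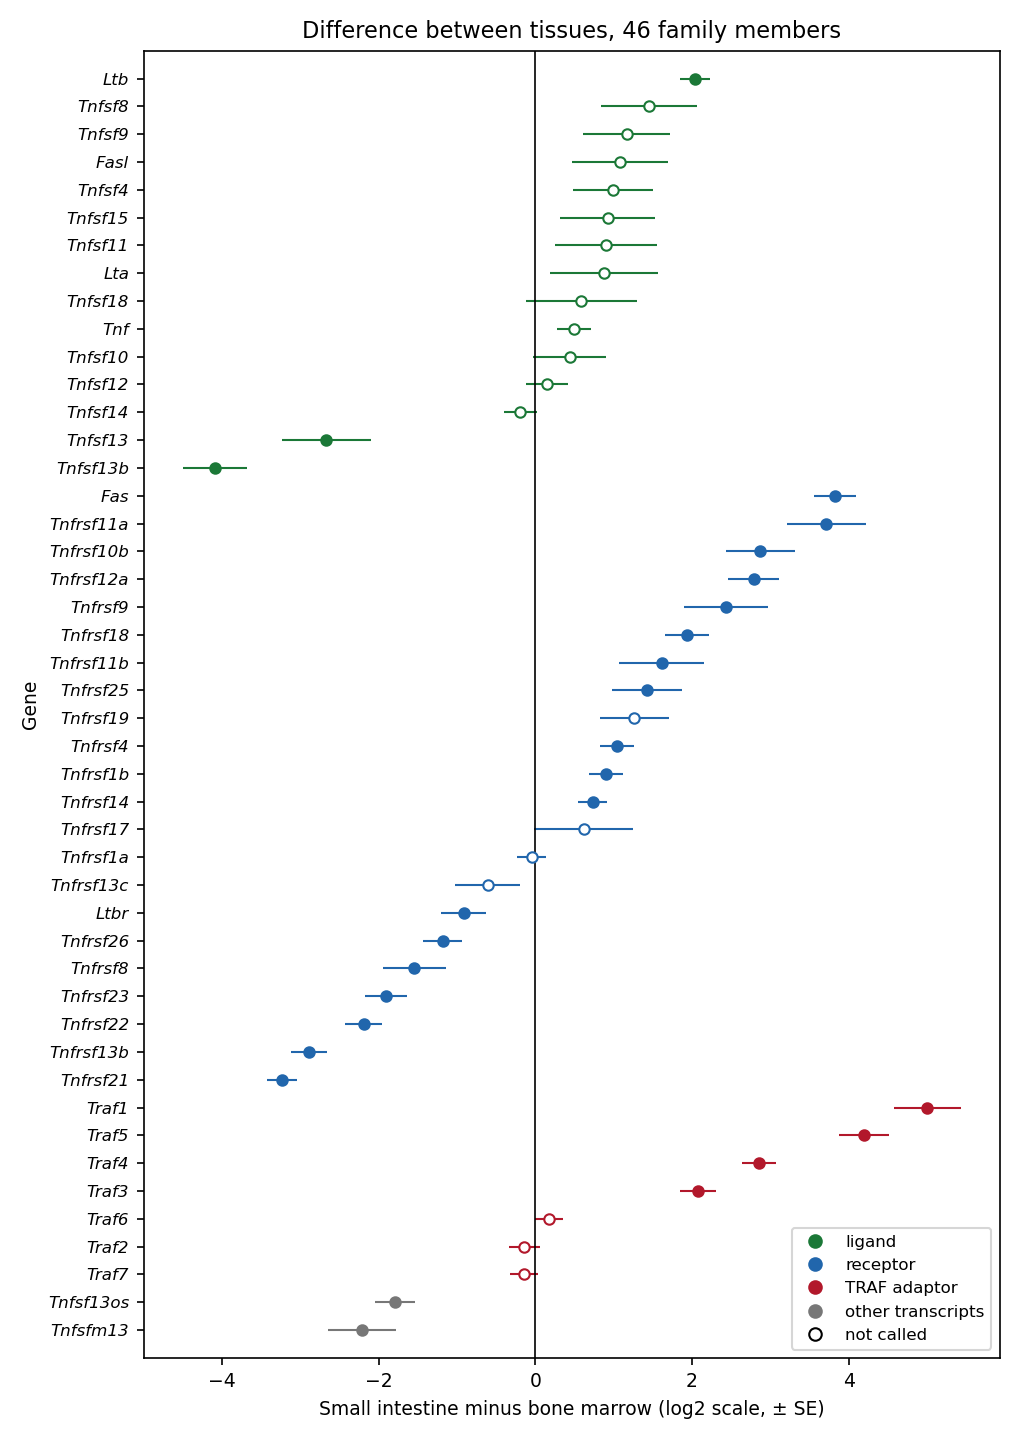
Difference between tissues for the 46 members (small intestine minus bone marrow on the log2 scale, points with SE bars), ordered by kind and size, with open points for members that did not pass the test. Receptors lie on both sides of 0, from -3.24 for Tnfrsf21 to 3.83 for Fas, whereas 4 of the 7 TRAFs lie above 2 and the other 3 lie close to 0.

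Promoters were examined for κB sites, bound by the NF-κB factors downstream of these receptors, and for sites of the aryl hydrocarbon receptor. Of the 46 members, 38 had a promoter in the RefSeq table for GRCm38.p6, and the 250 bases before each start were searched on both strands for the κB consensus and for GCGTG, the core of the site bound by the aryl hydrocarbon receptor that the study examines. No GCGTG overlapped a κB match in these promoters. The κB consensus was present for 4 of the 38 members (10.5%) and for 4.5% of 27025 genes, and GCGTG for 14 members (36.8%) and for 30.9% of genes. By direction, the κB consensus was found for 3 of 14 members that rose, 1 of 8 that fell and 0 of 16 that did not pass, and GCGTG for 7, 3 and 4 of the same. The 4 promoters with a κB match are shown over 100 bases, read toward the gene, with the match in capitals.
Traf3, chr12:111166270-111166369, plus strand: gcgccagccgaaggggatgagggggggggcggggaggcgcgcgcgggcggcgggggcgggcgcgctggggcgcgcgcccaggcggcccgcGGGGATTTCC
Tnfrsf9, chr4:150927899-150927998, plus strand: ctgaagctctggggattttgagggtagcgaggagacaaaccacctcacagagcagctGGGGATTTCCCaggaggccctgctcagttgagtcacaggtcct
Ltb, chr17:35194375-35194474, plus strand: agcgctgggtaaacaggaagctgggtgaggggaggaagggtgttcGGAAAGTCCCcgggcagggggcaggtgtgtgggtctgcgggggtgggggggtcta
Tnfrsf8, chr4:145315278-145315377, minus strand: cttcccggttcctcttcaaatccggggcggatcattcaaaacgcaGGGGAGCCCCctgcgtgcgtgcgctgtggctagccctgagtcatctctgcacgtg

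The match in Traf3 occupies the 10 bases just before the start, and that in Tnfrsf9, where 3 matches overlap in a stretch of 11 bases, lies 33 to 43 bases before the second of its listed starts. In Ltb the match lies 78 to 87 bases before the RefSeq start. The GENCODE start of Ltb (chr17:35194439) lies within the printed window, after the match, so the annotations differ on where the gene begins. In Tnfrsf8, the member of the 4 that fell, the match lies 159 to 168 bases before the start. The matches in Ltb and Tnfrsf8 are read from the strand opposite to the one printed, that in Traf3 from the printed strand, and those in Tnfrsf9 from both. Traf1, Fas and Traf5, among the members with the largest rises, had no match in this window, which says only that these letters are not there. The matches are letters in a sequence, and binding was not measured here.

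The B cell ligands were the ligands that fell. Tnfsf13b (ENSMUSG00000031497, chr8:10006467-10039072, plus strand) encodes BAFF, a survival factor of B cells. Its normalised counts were 121, 198, 128 and 136 in the bone marrow libraries and 13.1, 6.93, 4.38 and 1.19 in the small intestine libraries. No small intestine library came near the lowest bone marrow value. The means were 146 ± 35.1 normalised counts for bone marrow and 6.40 ± 5.05 for small intestine (± SD, n = 4 per tissue), a 22.8-fold fall, with a difference of -4.09 ± 0.41 on the log2 scale (limma, adjusted p = 1.14e-04). Tnfsf13 (ENSMUSG00000089669, chr11:69682846-69685784, minus strand) encodes APRIL, which sustains plasma cells. It fell from 42.5 ± 5.54 to 5.91 ± 4.05 normalised counts, a difference of -2.67 ± 0.57 on the log2 scale (limma, adjusted p = 0.00663), and SI_11 held no read of it. The antisense transcript Tnfsf13os fell by 1.79 ± 0.26 and the readthrough transcript Tnfsfm13 by 2.21 ± 0.44 (limma, adjusted p = 7.75e-04 and 0.00419). The values of these 3 genes are uncertain, because Tnfsf13 shares 60.0% of its exon bases with the other 2, and neither the strand nor the multiple-match setting of the counting is given in the sources. Tnfsf12, which encodes TWEAK and shares 48.3% of its exon bases with Tnfsfm13, differed by 0.14 ± 0.27 and did not pass (limma, adjusted p = 0.698). B cell transcripts moved the same way as these ligands: a list of 5 summed to between 314 and 541 normalised counts in bone marrow and to between 116 and 171 in small intestine, with 2 of its 5 genes lower. The neutrophil precursor list also moved this way, with all 10 of its genes lower. The part of either list in the result was not tested.

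Ltb, which encodes lymphotoxin beta and has a κB match in the promoter shown above, was the ligand that rose. Its normalised counts were 4.60, 5.22, 3.83 and 5.58 in the bone marrow libraries and 32.7, 26.3, 26.3 and 34.4 in the small intestine libraries. The groups were well separated, at a low level in both. The means were 4.80 ± 0.767 normalised counts for bone marrow and 29.9 ± 4.24 for small intestine (± SD, n = 4 per tissue), a 6.23-fold rise, with a difference of 2.04 ± 0.19 on the log2 scale (limma, adjusted p = 6.76e-05). Tnf itself, the proinflammatory cytokine that gives the family its name, had normalised counts of 146, 153, 119 and 128 in the bone marrow libraries and 141, 186, 228 and 231 in the small intestine libraries. SI_6 lay within the bone marrow range and the other 3 small intestine libraries above it. The difference of 0.49 ± 0.22 did not pass (limma, adjusted p = 0.127), but it did without SI_6, at 0.64 (adjusted p = 0.0207), and when genes of low count were left out (adjusted p = 0.0389). Tnfsf14, which encodes LIGHT, differed by -0.19 ± 0.21 (adjusted p = 0.49), between means of 92.8 ± 14.9 normalised counts for bone marrow and 80.9 ± 12.7 for small intestine (± SD, n = 4 per tissue). For Tnfsf10, which encodes the death ligand TRAIL, SI_6 stood at 487 normalised counts, with the other 7 libraries between 93.0 and 187. Its difference of 0.44 ± 0.47 did not pass (adjusted p = 0.482) and was -0.02 without SI_6, the library highest in epithelial, macrophage and plasma cell transcripts.

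The other 8 ligands stayed under 10 normalised counts in the mean of both tissues. They are Fasl, Lta, Tnfsf4, Tnfsf8, Tnfsf9, Tnfsf11, Tnfsf15 and Tnfsf18, which include the 4 ligands that costimulate T cells and the osteoclast factor RANKL (Tnfsf11). Their reads summed over the 4 libraries ranged from 2 (Tnfsf4) to 16 (Tnfsf11) in bone marrow and from 9 (Tnfsf4) to 33 (Tnfsf9) in small intestine. With limma 0 of the 8 passed the test, 1 (Tnfsf8) had an unadjusted p under 0.05, and 0 passed with limma-voom. Leaving out 1 library brought 1 call each, for Tnfsf8 without BM_5 (adjusted p = 0.0130), Tnfsf4 without SI_7 (0.0354) and Tnfsf15 without SI_11 (0.0467). Otherwise a difference in these ligands was not detectable at these read counts. Of the bone marrow reads, BM_5 held 6 of 6 for Lta, 8 of 9 for Tnfsf8 and 12 of 16 for Tnfsf11, but 0 of 15 for Tnfsf9. BM_5 also had the most genes with a read among the bone marrow libraries, and its part in these values was not tested.

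**Figure D2:**
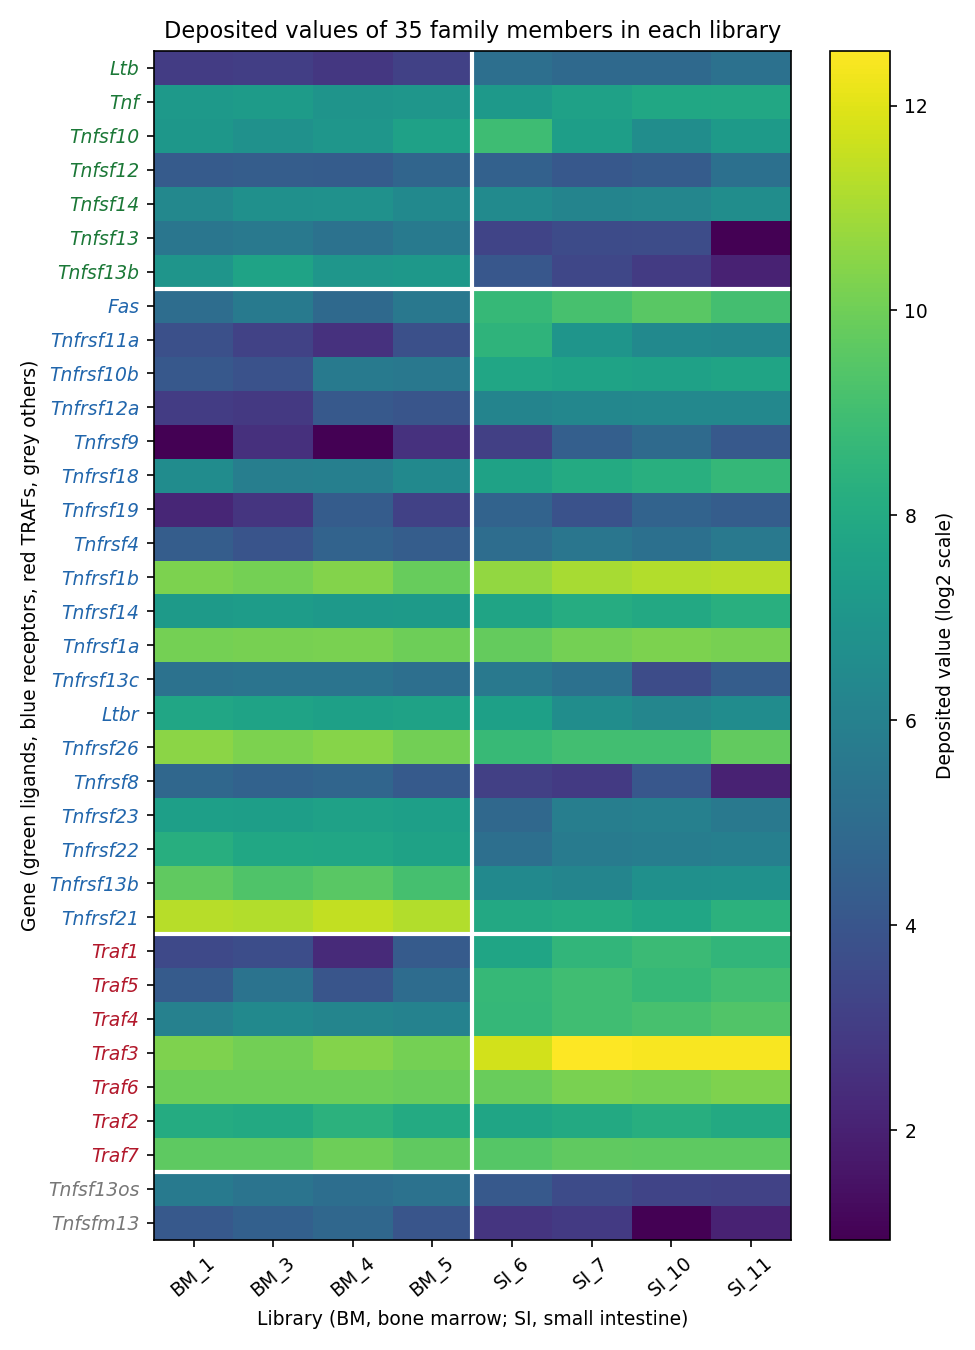
Deposited values (colour, log2 scale) of the 35 members with a mean of at least 10 normalised counts in a tissue, one row per gene and one column per library. The bone marrow and small intestine blocks differ most in Traf1, Traf5, Fas, Tnfrsf11a, Tnfsf13b and Tnfrsf21, and SI_6 stands out in Tnfsf10 and Tnfrsf11a.

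Both TNF receptors were expressed in the 2 tissues, and 1 of them rose. Tnfrsf1a (TNFR1), the death domain receptor, averaged 1106 ± 75.7 normalised counts for bone marrow and 1076 ± 132 for small intestine (± SD, n = 4 per tissue), a difference of -0.04 ± 0.18 that did not pass (limma, adjusted p = 0.87). Tnfrsf1b (TNFR2), which lacks a death domain and recruits TRAFs, had normalised counts of 1211, 1114, 1310.0 and 915 in the bone marrow libraries and 1623, 2079, 2338 and 2532 in the small intestine libraries. Its groups did not overlap, and it rose by 0.90 ± 0.22 (limma, adjusted p = 0.0119). Tnfrsf14 (HVEM), a receptor of LIGHT, rose from 151 ± 5.21 to 255 ± 39.9 normalised counts, by 0.73 ± 0.19 (adjusted p = 0.0153), and did not pass after centring each library on its median (adjusted p = 0.0572). Ltbr, the lymphotoxin beta receptor, had normalised counts of 219, 200.2, 182 and 191 in the bone marrow libraries and 182, 94.3, 72.2 and 90.1 in the small intestine libraries, so that SI_6 reached the bone marrow range. It was called lower, with a difference of -0.91 ± 0.29 on the log2 scale (adjusted p = 0.0384), and was no longer called when any library but SI_6 was left out, with differences between -1.18 (without SI_6) and -0.75.

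Among the 8 death and decoy receptors, 4 rose and 4 fell. The death receptor Fas (ENSMUSG00000024778, chr19:34290666-34327772, plus strand) had normalised counts of 29.9, 47.0, 25.8 and 44.6 in the bone marrow libraries and 413, 571, 750.4 and 540.5 in the small intestine libraries. The lowest intestinal value was several times the highest bone marrow value. The means were 36.8 ± 10.5 normalised counts for bone marrow and 569 ± 139 for small intestine (± SD, n = 4 per tissue), a 15.4-fold rise, with a difference of 3.83 ± 0.27 on the log2 scale (limma, adjusted p = 1.71e-05). Tnfrsf10b (ENSMUSG00000022074, chr14:69767472-69784411, plus strand), the mouse receptor of TRAIL, had normalised counts of 13.8, 11.1, 47.8 and 44.6 in the bone marrow libraries and 222, 199.7, 186 and 207 in the small intestine libraries. The intestinal libraries were close to each other, whereas the bone marrow libraries formed a lower pair, BM_1 and BM_3, and a higher pair. The means were 29.3 ± 19.6 normalised counts for bone marrow and 204 ± 14.9 for small intestine (± SD, n = 4 per tissue), a 6.94-fold rise, with a difference of 2.87 ± 0.44 on the log2 scale (limma, adjusted p = 0.00106). Tnfrsf25 (DR3) and Tnfrsf11b (osteoprotegerin, a decoy for RANKL) were also called higher, on 5 bone marrow reads each and on 18 and 25 intestinal reads. Both calls were fragile. Tnfrsf11b (adjusted p = 0.0493) was called under 3 of 16 settings that kept it and lost its call without each library but BM_5, and Tnfrsf25 (adjusted p = 0.0366) was called under 8 of 16 and lost its call without BM_3, BM_5 or any intestinal library. Over these omissions the difference of Tnfrsf11b ranged from 1.33 to 2.01 and that of Tnfrsf25 from 1.18 to 1.74.

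Tnfrsf21 (ENSMUSG00000023915, chr17:43016555-43089189, plus strand) encodes DR6, a death domain receptor. It had normalised counts of 2531, 2339.9, 2810.4 and 2329 in the bone marrow libraries and 245, 263, 222 and 327 in the small intestine libraries. The tissues were far apart relative to the spread within each. The means were 2502 ± 225 normalised counts for bone marrow and 264 ± 45.2 for small intestine (± SD, n = 4 per tissue), a 9.47-fold fall, with a difference of -3.24 ± 0.19 on the log2 scale (limma, adjusted p = 7.45e-06). The remaining 3 falls were the neighbouring genes Tnfrsf22 (ENSMUSG00000010751, chr7:143634806-143649661, minus strand), Tnfrsf23 (ENSMUSG00000037613, chr7:143665809-143685872, minus strand) and Tnfrsf26 (ENSMUSG00000045362, chr7:143607659-143628722, minus strand), of which the first pair encode decoy receptors for TRAIL. Tnfrsf22 had normalised counts of 287, 225, 221 and 193 in the bone marrow libraries and 32.7, 49.9, 53.6 and 56.9 in the small intestine libraries, and fell by 2.19 ± 0.23 (limma, adjusted p = 1.57e-04). Tnfrsf23 had normalised counts of 175, 169.6, 185 and 175 in the bone marrow libraries and 25.1, 55.5, 60.2 and 45.0 in the small intestine libraries, and fell by 1.90 ± 0.27 (adjusted p = 7.66e-04). Their groups were apart in both, but 12.6% of the distinct 75-base stretches in Tnfrsf22 transcripts also occur in Tnfrsf23, so reads could be split between them. Tnfrsf26 had normalised counts of 1451, 1206, 1372 and 1074 in the bone marrow libraries and 427, 510.3, 512 and 855 in the small intestine libraries, and fell by 1.18 ± 0.25 (adjusted p = 0.00663), with SI_11 nearest to bone marrow. The 4 falls were in the direction of the neutrophil precursor transcripts, all 10 of which were lower in small intestine, and the part of that list in them was not tested.

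The costimulatory receptors moved in both directions. Tnfrsf18 (ENSMUSG00000041954, chr4:156026164-156028895, plus strand), which encodes GITR, had normalised counts of 90.4, 55.4, 57.4 and 82.7 in the bone marrow libraries and 195, 258, 296 and 405 in the small intestine libraries. All intestinal values exceeded all bone marrow values. The means were 71.5 ± 17.7 normalised counts for bone marrow and 289 ± 88.2 for small intestine (± SD, n = 4 per tissue), a 4.04-fold rise, with a difference of 1.94 ± 0.28 on the log2 scale (limma, adjusted p = 8.38e-04). Its exons share 27.2% of their bases with Gm16008 on the opposite strand. Its neighbour Tnfrsf4 (OX40) rose from 16.6 ± 3.81 to 37.8 ± 6.69 normalised counts, by 1.04 ± 0.22 (adjusted p = 0.00638), and did not pass after quantile normalisation, where the difference was 0.27 (adjusted p = 0.493). Tnfrsf9 (4-1BB), with the overlapping κB matches shown above, rose by 2.43 ± 0.54 (adjusted p = 0.00747) from a level close to 0, with 7 reads over the bone marrow libraries and 55 over the intestinal ones. Tnfrsf8 (CD30), the member with a κB match that fell, went from 20.6 ± 4.24 to 5.98 ± 5.09 normalised counts, a difference of -1.55 ± 0.40 (adjusted p = 0.0168), and lost its call without BM_1 (-1.47, adjusted p = 0.0521) or SI_7 (-1.50, adjusted p = 0.0539). Transcripts of T cells and NK cells, which are known to carry these receptors, summed to between 19.1 and 57.6 normalised counts over 7 genes in bone marrow and to between 46.2 and 89.7 in small intestine (2-sided exact permutation test, n = 4 each, p = 0.114), with Cd3e and Cd8a called higher.

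Of the receptors of the B cell ligands, Tnfrsf13b fell. Tnfrsf13b (ENSMUSG00000010142, chr11:61126755-61149372, plus strand) encodes TACI, which binds both BAFF and APRIL. Its normalised counts were 827, 646, 759 and 557 in the bone marrow libraries and 83.0, 69.3, 103 and 109 in the small intestine libraries. The tissues did not overlap. The means were 697 ± 119.8 normalised counts for bone marrow and 91.0 ± 18.3 for small intestine (± SD, n = 4 per tissue), a 7.66-fold fall, with a difference of -2.89 ± 0.23 on the log2 scale (limma, adjusted p = 2.85e-05). Tnfrsf13c, the BAFF receptor, averaged 36.3 ± 2.76 normalised counts for bone marrow and 26.5 ± 16.9 for small intestine (± SD, n = 4 per tissue) and did not pass (difference -0.61 ± 0.42, adjusted p = 0.308). Tnfrsf17 (BCMA), a receptor on plasma cells, had 7 reads over the bone marrow libraries and 10 over the intestinal libraries. Plasma cell transcripts, led by Igha and Jchain, summed to between 3937 and 26318 normalised counts in small intestine and to between 16.3 and 105 in bone marrow over 5 genes, of which 4 were higher. In the direction of Tnfrsf13b, the B cell list (2 of 5 genes lower) and the neutrophil precursor list (all 10 lower) summed to less in small intestine. The part of these lists in the values was not tested.

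Of the receptors RANK, Fn14 and TROY, known from bone and tissue remodelling, the first pair rose. Tnfrsf11a (ENSMUSG00000026321, chr1:105780718-105847981, plus strand) encodes RANK. It had normalised counts of 9.96, 5.87, 2.87 and 10.2 in the bone marrow libraries and 353, 123, 84.2 and 74.7 in the small intestine libraries. SI_6 was far above the other intestinal libraries, which were still far above bone marrow. The means were 7.23 ± 3.53 normalised counts for bone marrow and 159 ± 131 for small intestine (± SD, n = 4 per tissue), a 21.9-fold rise, with a difference of 3.72 ± 0.51 on the log2 scale (limma, adjusted p = 5.99e-04). The rise did not rest on SI_6, since without it the difference was 3.24 (adjusted p = 6.16e-04). The epithelial list summed to 17943 normalised counts in SI_6 and to between 2682 and 7408 in the other 3, and its part in the rise was not tested. Tnfrsf12a (ENSMUSG00000023905, chr17:23675445-23677468, minus strand), which encodes the TWEAK receptor Fn14, had normalised counts of 4.60, 3.91, 14.4 and 12.1 in the bone marrow libraries and 67.7, 74.9, 76.6 and 78.2 in the small intestine libraries. Here the 4 intestinal values were alike, and SI_6 was the lowest of them. The means were 8.74 ± 5.27 normalised counts for bone marrow and 74.3 ± 4.65 for small intestine (± SD, n = 4 per tissue), an 8.51-fold rise, with a difference of 2.79 ± 0.33 on the log2 scale (limma, adjusted p = 2.59e-04). Tnfrsf19 (TROY) averaged 6.66 ± 6.62 normalised counts for bone marrow and 17.3 ± 4.58 for small intestine (± SD, n = 4 per tissue) and just missed the threshold (difference 1.27 ± 0.44, adjusted p = 0.0549), which it passed without BM_4 (1.67, adjusted p = 0.00653). It also passed with limma-voom, with a pseudocount of 5 and when genes of low count were left out, whereas after quantile normalisation the difference was 0.39 (adjusted p = 0.553).

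The TRAFs fell into 4 that rose and 3 that did not pass. Traf1 (ENSMUSG00000026875, chr2:34941750-34961772, minus strand) encodes an adaptor that lacks the RING domain of the other TRAFs and is a known NF-κB target. It had normalised counts of 7.66, 9.13, 1.91 and 15.8 in the bone marrow libraries and 215, 374, 454 and 382 in the small intestine libraries. From a few reads in each bone marrow library, it reached a far higher level in each intestinal library. The means were 8.63 ± 5.71 normalised counts for bone marrow and 356 ± 101 for small intestine (± SD, n = 4 per tissue), a 41.3-fold rise, with a difference of 5.01 ± 0.43 on the log2 scale (limma, adjusted p = 4.54e-05). Traf5 (ENSMUSG00000026637, chr1:191997205-192092559, minus strand), an adaptor of costimulatory receptors, had normalised counts of 15.3, 36.5, 12.4 and 28.8 in the bone marrow libraries and 408, 498, 412 and 522 in the small intestine libraries. Intestinal libraries varied little around their mean. The means were 23.3 ± 11.4 normalised counts for bone marrow and 460.0 ± 58.2 for small intestine (± SD, n = 4 per tissue), a 19.8-fold rise, with a difference of 4.20 ± 0.32 on the log2 scale (limma, adjusted p = 2.41e-05). Traf4 (ENSMUSG00000017386, chr11:78158499-78165589, minus strand) had normalised counts of 62.1, 82.2, 70.8 and 63.2 in the bone marrow libraries and 399.5, 495, 575 and 659 in the small intestine libraries. The groups were far apart relative to their spread. The means were 69.6 ± 9.26 normalised counts for bone marrow and 532 ± 111 for small intestine (± SD, n = 4 per tissue), a 7.65-fold rise, with a difference of 2.85 ± 0.22 on the log2 scale (limma, adjusted p = 2.49e-05). Traf3 (ENSMUSG00000021277, chr12:111166370-111267153, plus strand), which holds back the non-canonical NF-κB route by promoting the degradation of NIK and whose promoter is shown above, had normalised counts of 1230.5, 1081, 1314 and 1095 in the bone marrow libraries and 3414, 5928, 5399.7 and 5547 in the small intestine libraries. SI_6 was the lowest of the intestinal libraries and still above all of bone marrow. The means were 1180.2 ± 112 normalised counts for bone marrow and 5072 ± 1128 for small intestine (± SD, n = 4 per tissue), a 4.30-fold rise, with a difference of 2.07 ± 0.23 on the log2 scale (limma, adjusted p = 1.84e-04).

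The other 3 TRAFs did not pass the test, and their libraries overlapped between tissues. Traf2, the partner of Traf1 at TNF receptors, averaged 275 ± 40.8 normalised counts for bone marrow and 249 ± 31.5 for small intestine (± SD, n = 4 per tissue), with a difference of -0.14 ± 0.20. Traf6, which serves RANK and Toll-like receptors, averaged 979 ± 30.5 normalised counts for bone marrow and 1111 ± 128 for small intestine (± SD, n = 4 per tissue), with a difference of 0.17 ± 0.18. Traf7 averaged 863 ± 99.1 normalised counts for bone marrow and 778 ± 53.2 for small intestine (± SD, n = 4 per tissue), with a difference of -0.14 ± 0.18. Adjusted p-values were 0.594, 0.476 and 0.542 (limma), 0 of the 3 had an unadjusted p under 0.05 and 0 passed with limma-voom, and the differences stayed between -0.21 and 0.25 over every alternative setting and omitted library. The 4 that rose were called under each of these settings, with Traf1 between 4.50 and 5.50 and Traf3 between 1.74 and 2.25.

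**Figure D3:**
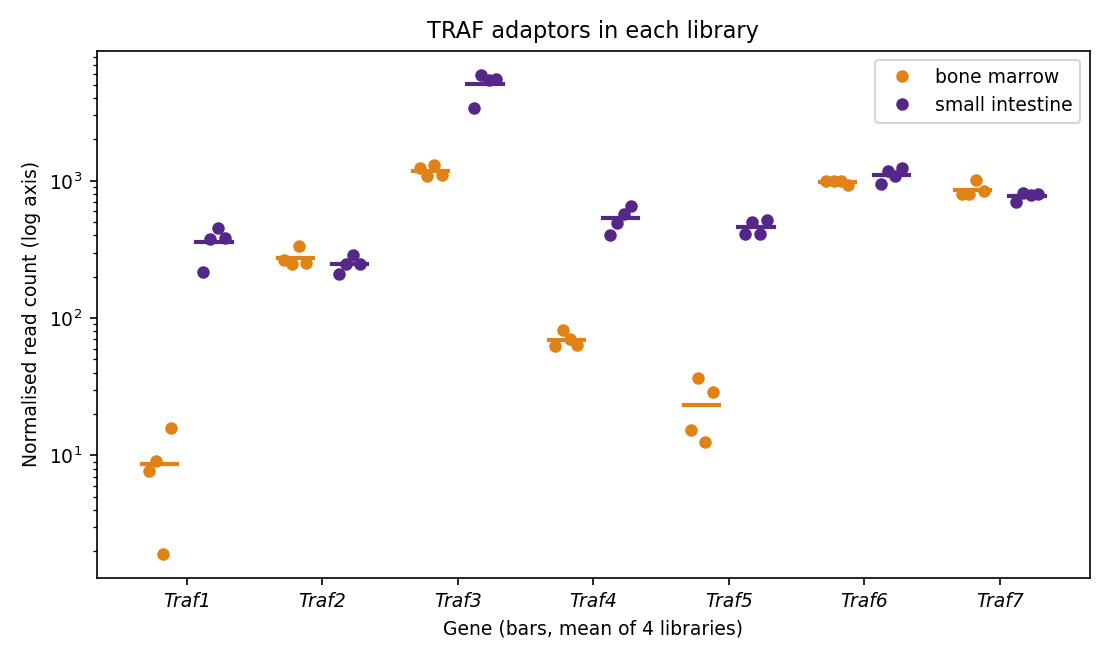
Normalised read counts of the 7 TRAF genes on a log axis, with a point for each of the 4 libraries per tissue and a bar at their mean. Traf1, Traf3, Traf4 and Traf5 show no overlap between tissues, and Traf2, Traf6 and Traf7 overlap.

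Per kilobase of exon, which allows levels to be set beside each other between genes, the order of the members changed between tissues. In bone marrow the highest were Tnfrsf21 (609 ± 54.8 normalised reads per kilobase), Tnfrsf1a (427 ± 29.2), Tnfrsf26 (396 ± 52.5), Tnfrsf1b (298 ± 44.2) and Tnfrsf13b (246 ± 42.2), with SD over 4 libraries. The SD ranges of Tnfrsf1a and Tnfrsf26 overlapped, as did those of Tnfrsf1b and Tnfrsf13b. In small intestine the highest were Traf3 (690 ± 153), Tnfrsf1b (561 ± 103), Tnfrsf1a (415 ± 50.9), Fas (276 ± 67.5) and Tnfrsf18 (189 ± 57.9). Each of these overlapped with the next in its SD range except Tnfrsf1a and Fas. The most abundant ligand per kilobase was Tnf in both tissues, at 83.3 ± 9.59 in bone marrow and 119.8 ± 25.8 in small intestine.

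**Figure D4:**
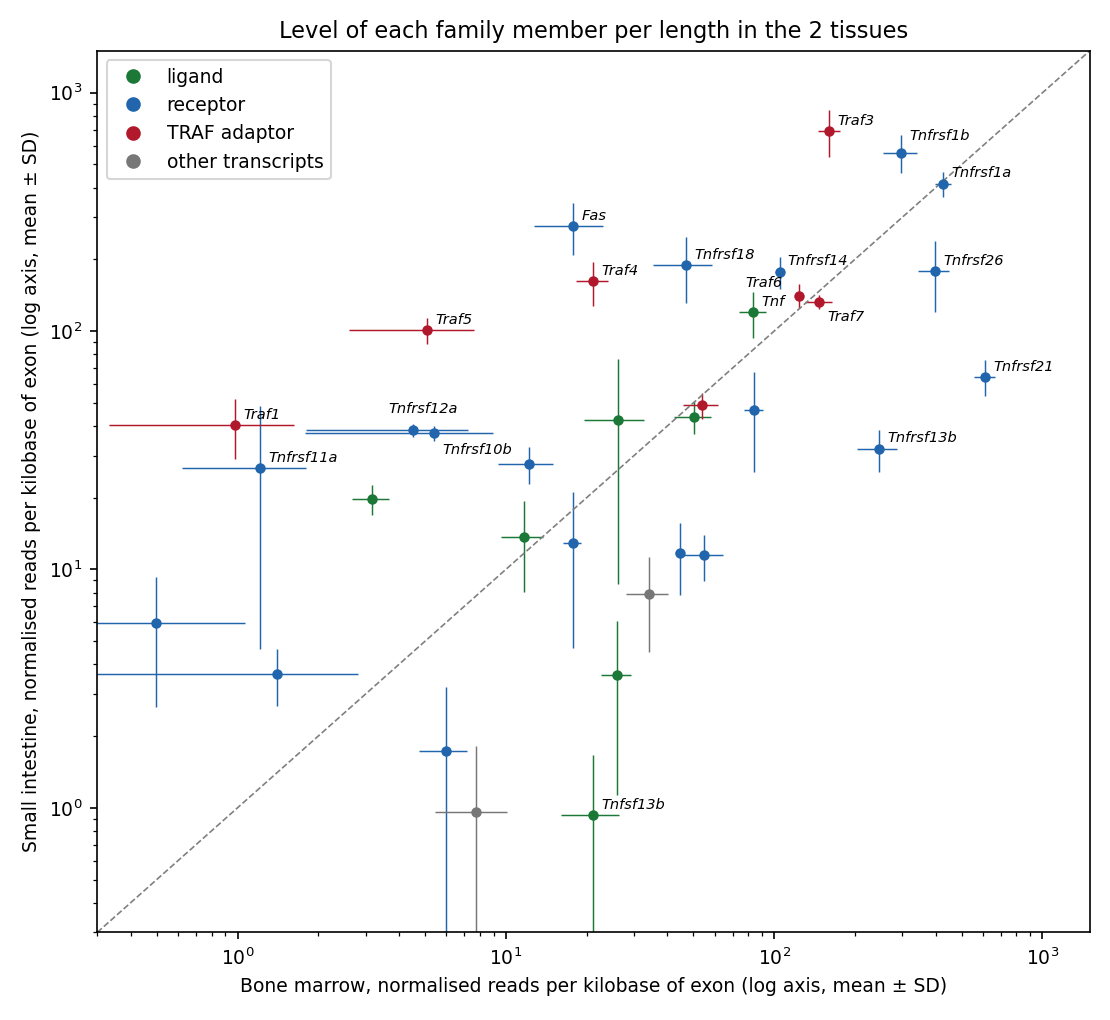
Mean level per kilobase of exon in small intestine against bone marrow for the 35 members with at least 10 normalised counts in a tissue, on log axes with SD bars over 4 libraries and a dashed line of equality (bars that reach 0 leave the panel). Traf3, Fas, Traf4 and Traf5 lie above the line and Tnfrsf21, Tnfrsf13b and Tnfsf13b below it, with Tnfrsf1a, Traf6 and Traf7 on or close to it.

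For 23 known pairs of a ligand and its receptor, both partners were called in the same direction in 2 (Tnfsf13 and Tnfsf13b with Tnfrsf13b, all lower) and in opposite directions in 1 (Ltb higher, Ltbr lower). In 18 pairs 1 partner was called and in 2 pairs neither was. Some receptors rose where their ligand had few reads in the same libraries. Fas rose with Fasl at 20 intestinal reads, Tnfrsf11a with Tnfsf11 at 25, and Tnfrsf18 with Tnfsf18 at 11.

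The table also holds 9 family genes with other symbols, which the rule for members did not take. Relt, a receptor, rose from 154 ± 6.35 to 429 ± 77.4 normalised counts, by 1.44 ± 0.19 (limma, adjusted p = 5.33e-04). Ngfr, the low-affinity neurotrophin receptor, was called higher by 2.55 ± 0.49 (adjusted p = 0.00387) on 41 intestinal reads against 1 in bone marrow. Cd27 fell from 180.1 ± 30.7 to 78.0 ± 17.0, a difference of -1.17 ± 0.23 (adjusted p = 0.00378). Cd40, whose groups did not overlap, differed by 1.58 ± 0.54 and did not pass (adjusted p = 0.0516). Cd40lg, Cd70, Eda, Edar and Eda2r had differences between 0.05 and 1.44 at means of at most 10.2 normalised counts, and 0 of the 5 passed with limma, whereas Eda2r had an unadjusted p under 0.05 and passed with limma-voom.

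Downstream of the receptors, a list of 50 genes of TNF receptor signalling held 27 that rose, 1 that fell and 22 that did not pass, with a median difference of 0.73 against 0.44 for all protein-coding genes. The 54% that rose stand beside 28.4% of all protein-coding genes, and the 2% that fell beside 20.1%. These backgrounds are not matched in level, since all 50 genes reached a mean of 10 normalised counts in a tissue. Of all protein-coding genes, 6281 of 20623 did not. When genes of low count were left out, 27 of 49 list genes rose and 8 fell, against 6436 and 5405 of 16139 genes. The 5 largest rises were in Tnfaip3, Relb, Birc3, Nfkbie and Nfkbia. Tnfaip3, which encodes the ubiquitin-editing inhibitor A20, had normalised counts of 356, 205, 260.3 and 257 in the bone marrow libraries and 36942, 43826, 56348 and 59427 in the small intestine libraries, a rise of 7.49 ± 0.25 (limma, adjusted p = 4.77e-07). Relb, a subunit of the non-canonical route, had normalised counts of 3.83, 7.17, 9.57 and 13.9 in the bone marrow libraries and 896, 1220.4, 1522 and 1266 in the small intestine libraries, a rise of 6.72 ± 0.31 (adjusted p = 2.10e-06). In both, the lowest intestinal library exceeded the highest bone marrow library by far. Birc3 (cIAP2), a ubiquitin ligase that binds TRAF2, rose from 512 ± 42.7 to 22518 ± 3105 normalised counts, by 5.44 ± 0.19 (adjusted p = 5.98e-07). Nfkbie and Nfkbia, which encode the inhibitors IκBε and IκBα, rose by 5.10 ± 0.19 and 4.35 ± 0.26 (adjusted p = 7.69e-07 and 7.70e-06).

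The gene that fell was Fadd, the adaptor between death domain receptors and caspase 8, which had normalised counts of 419.9, 428, 426 and 378 in the bone marrow libraries and 168, 73.5, 64.5 and 56.9 in the small intestine libraries. It fell by 2.27 ± 0.33 (limma, adjusted p = 8.38e-04), with SI_6 the closest to bone marrow. Every intestinal library lay below every bone marrow library for 9 genes of the list (18.0%, against 13.9% of all genes and 22.2% of protein-coding genes), a share near the background, and above for 29 (58.0%, against 20.3% and 27.3%). The 9 were Fadd and 8 genes that did not pass the test, Ripk1, Ripk3, Mlkl, Cflar, Xiap, Tab1, Map3k8 and Tnfaip8l2, with differences between -0.53 and -0.31. The number of lower genes in the list, Fadd included, varied with the setting, with 7 under a trended prior, 7 after quantile normalisation, 5 with limma-voom, 8 with a pseudocount of 5 and 8 when genes of low count were left out, which also leaves fewer genes to adjust for. Of the 8, all but Ripk3 were called lower under at least 1 setting, as were Tifa and Traf3ip1 under 1 each. Without BM_5 the list held 7 lower genes and without SI_10 it held 5, and without SI_6, SI_7 or SI_11 it held 2. Caspase 8 (Casp8) differed by 0.04 ± 0.17 and Tradd by -0.06 ± 0.21, and neither passed. A list of 10 genes that respond to tissue dissociation, among them Fos, Egr1 and Atf3, moved in the direction of the signalling genes that rose. All 10 were higher in small intestine, and they summed to between 472 and 731 normalised counts in bone marrow and to between 58832 and 77959 in small intestine. The 4 TRAFs that rose did so in the same libraries. The part of the dissociation list in the rises of the signalling genes or of the TRAFs was not tested.

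**Figure D5:**
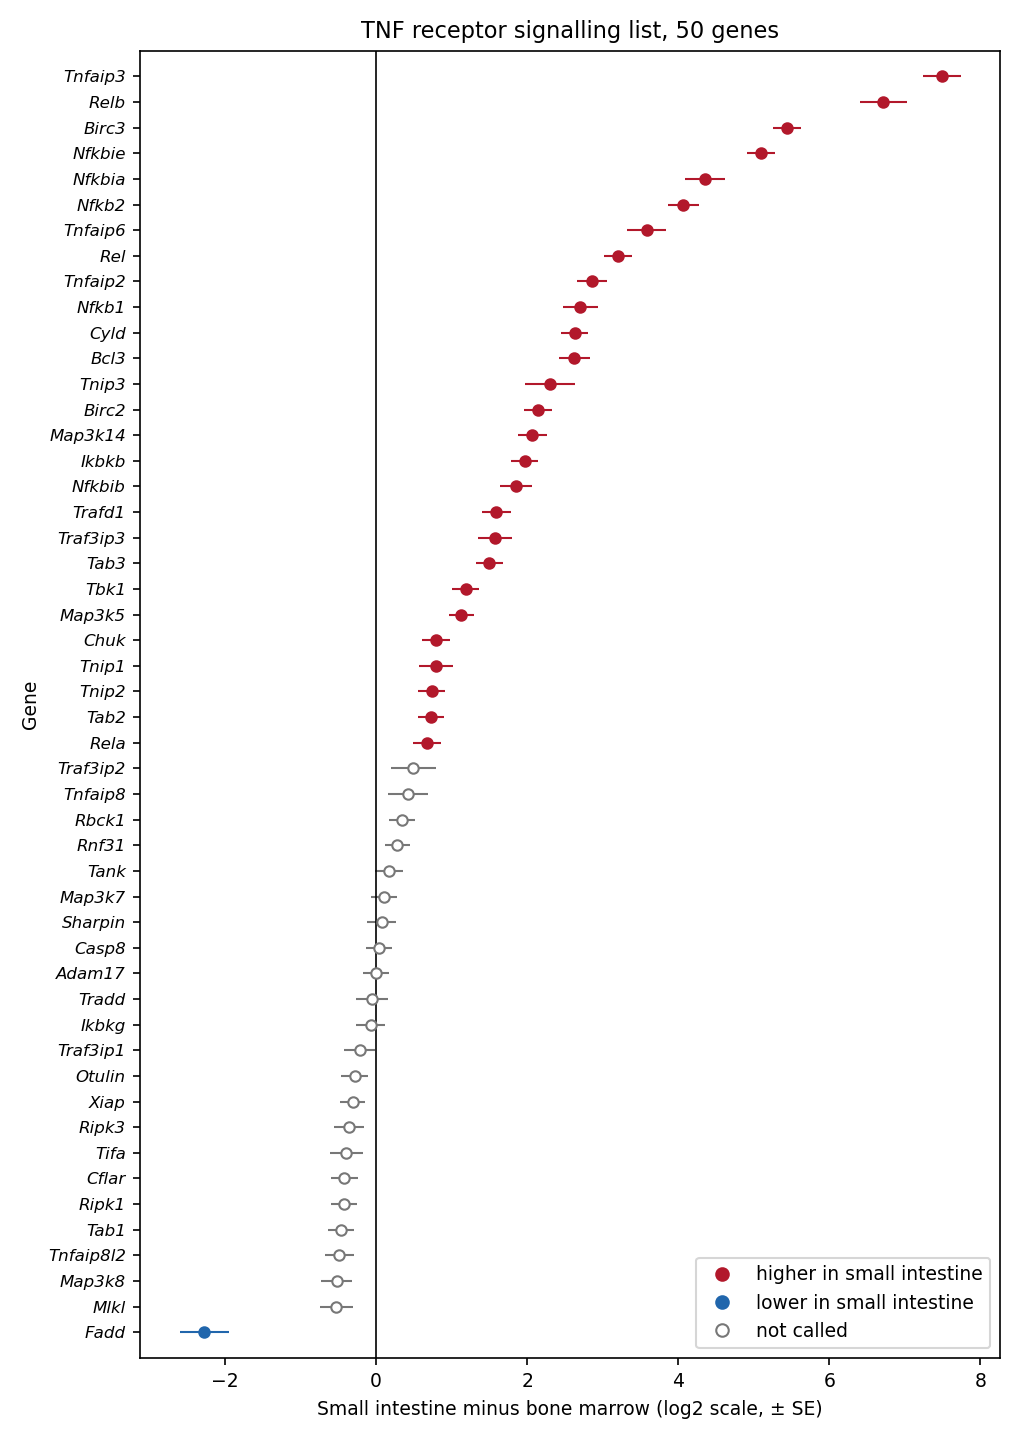
Difference between tissues for the 50 genes of the TNF receptor signalling list (small intestine minus bone marrow on the log2 scale, points with SE bars), ordered by size. Filled points passed the test, 27 above 0 and Fadd alone below, and the open points lie between -0.53 and 0.49.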

How the data were processed

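Gene expression was measured by RNA-seq in cells sorted as eosinophils, with 4 libraries from bone marrow and 4 from small intestine, prepared with the NuGEN Ovation kits and sequenced as single-end reads. Per the labels and the methods, the authors aligned the reads to GRCm38, obtained gene counts with the nf-core RNA-seq workflow, and fitted DESeq2 in R 4.0.3. The values deposited by the authors are the variance-stabilised log2 values of DESeq2 for 38392 genes. For the aligner, the strand setting and reads with several matches, the choice is not given in the sources used here.

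Reads were recovered from the deposited values by inverting the transformation at its lowest value (0.92971568). They were whole within a tolerance of 0.05 for 100% of genes in each library, and summed to between 11508002 and 21289164, which limits precision for members with few reads. Normalised counts are these reads after division by the library's size factor, and a floor of 3 reads per tissue was set for folds. No column lay outside the 2 tissues, but the columns matched the labels by tissue only.

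For the comparison of tissues, limma 3.58.1 (R 4.3.3) was fitted to the deposited log2 values of all genes, with a constant prior and no covariate or filter. It took the place of the study's count model because the deposited values are variance-stabilised. The recovered reads were used in an alternative with limma-voom. P-values are 2-sided with Benjamini-Hochberg adjustment over 38392 genes and a threshold of 0.05. In counts drawn for this comparison over 38392 genes with 200 changed by 2 on the log2 scale, 144 (72%) were recovered, with 79 false calls, 4 of them in genes with a mean of 10 or more. The rest of the false calls were thus in genes of low count. The draw changed far fewer genes than the 13402 called in the data, so these rates need not hold for the data. Summed marker lists were compared by exact permutation over 70 assignments. Annotation was GENCODE M21 (GRCm38). All 38392 identifiers matched. Python 3.11.15, numpy 2.4.6, pandas 2.3.3 and matplotlib 3.10.9 were used. Alternatives were median-centring, quantile normalisation, limma-voom on the recovered reads, log2 of the normalised count plus 1 or plus 5, a trended or robust prior, a filter (at least 10 normalised counts in at least 4 libraries, 16139 genes), and leaving out each library.

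The members, the lists and the rule for naming were chosen with earlier results of these data known. Members with a mean of at least 10 normalised counts in a tissue are named with values, and given by library where called with a difference of at least 1 and a mean of at least 50. From the signalling list, up to 5 called genes are named in each direction by the size of their difference, and all 9 family genes with other symbols. Values by library for Ltb, Ltbr, Tnf, Tnfrsf1b, Tnfaip3, Relb and Fadd, and the genes Ripk1, Ripk3, Mlkl, Cflar, Xiap, Tab1, Map3k8, Tnfaip8l2, Tifa, Traf3ip1, Casp8 and Tradd, were added after their values were seen.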

Additional observations from a re-analysis of the deposited data

Results flagged for a closer look

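In groups of 4 libraries, 2 of 70 groups of member values had a library that stood apart by Dixon's test at its 95% critical value, where chance would give about 1 in 20, or 3.5. For Tnfsf13 in small intestine, SI_11 was the lowest, with a gap that took 0.89 of the range of the group, since it held no read while the other 3 libraries lay between 6.55 and 8.75 normalised counts. For Traf3 in small intestine, SI_6 was the lowest, with a gap of 0.831 of the range, at 3414 normalised counts against 5399.7 to 5928 in the others. Without SI_11 the difference of Tnfsf13 was -2.02, and without SI_6 that of Traf3 was 2.25, and both remained called (limma, adjusted p = 2.73e-04 and 5.69e-05).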

How the results depend on the processing

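Of the 27 members called, 21 kept their call and direction under each alternative that could be fitted for them. The others were Tnfrsf14, Ltbr, Tnfrsf4, Tnfrsf11b, Tnfrsf25 and Tnfrsf8, and none of the 27 changed sign. Leaving out 1 library at a time gave between 14 and 16 higher and between 9 and 11 lower members, and between 26 and 29 higher and between 1 and 7 lower genes of the signalling list. The lower genes of that list, 1 in the test reported, were 7 after quantile normalisation, 5 with limma-voom, 8 with a pseudocount of 5, 7 with a trended prior and 8 with the filter on low values. Among members and family genes that did not pass, the difference of Tnfrsf1a ranged from -0.0973 to 0.0447 (without SI_6), that of Tnfsf10 from -0.0239 (without SI_6) to 0.757, and that of Tnfsf12 from -0.0740 (without SI_11) to 0.286, when a library was left out. After quantile normalisation that of Tnfsf12 was -0.76. Eda had -0.0140 after median-centring, -0.90 after quantile normalisation (adjusted p = 0.047) and between -0.224 and 0.258 with a library left out, and Edar had -0.0490 after quantile normalisation. The cause was not tested. The median difference of all genes was 0.37 and moved to 0.31 with median-centring, -0.03 with quantile normalisation, 0.89 with limma-voom, 0.17 with a pseudocount of 5 and 0.14 with the filter. No paired analysis was possible because the replicate numbers of the labels are not shared between tissues and the columns match the labels by tissue only. Few reads limit the 11 members under 10 normalised counts in both tissues, 2 of which, Tnfrsf25 and Tnfrsf11b, were called.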
